A study of Mus musculus with 6 samples.

Results

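The genes described here are 10 components of the myostatin and activin pathway, chosen by name: Mstn, Gdf11, Inhba, Fst, Acvr2a, Acvr2b, Acvr1b, Smad2, Smad3 and Smad7. All 10 had a row among the 49366 windows in which ATAC-seq reads were counted around transcript starts. The extent of a window is not stated in full. It was taken as 1 kb before and after all annotated starts of the gene, inferred from the annotation and the counts, so genes with several starts have longer windows, and all values per kb of window rest on this. Accessibility at the 10 windows did not differ between Yap-shRNA and LacZ-shRNA myonuclei beyond the spread between replicates. The members differed from one another instead. The type I receptor gene Acvr1b and the Smad3 gene had the most open windows by counts per kb, and the follistatin gene Fst the least open. The Fst window shares bases with that of another gene, so its counts are uncertain. Peaks of open chromatin covered the 5′ start of all 6 receptor and Smad genes, though not all their internal starts, and no start of the ligand genes or Fst. A window without a peak was not always less open, since Gdf11 averaged more counts per kb than Acvr2a.

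Myostatin, GDF11 and activin A are secreted ligands of the TGF-beta superfamily. They bind type II receptors, which bring in a type I receptor that phosphorylates the transcription factors Smad2 and Smad3, and these enter the nucleus with Smad4. Myostatin is made by muscle fibres and restrains their growth. Follistatin binds and blocks the ligands outside the cell, and Smad7, an inhibitory Smad, blocks the signal inside it.

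ATAC-seq measures open chromatin by the sites at which a transposase can insert sequencing adapters. Contralateral hindlimb muscles were injected with AAV6 vectors when the mice, C57BL/6J males, had reached 8 weeks. Nuclei were taken 28 days after this injection and sorted for PCM1, a protein around the nuclei of muscle fibres. One limb received AAV6:Yap-shRNA, a vector that expresses a short hairpin RNA (shRNA) against Yap, a Hippo pathway coactivator that works through TEAD factors, and the other received AAV6:lacZ-shRNA, whose target is a bacterial gene. Each replicate pooled 4 gastrocnemius and 4 tibialis anterior muscles, and there were 3 replicates per group. All muscles carried a vector, no uninjected muscle was compared, and an shRNA acts on RNA, so accessibility does not measure the knockdown. The question put to each gene was whether its accessibility differed after Yap knockdown.

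Window counts totalled from 3326803 to 8964441 per library in LacZ-shRNA and from 8622014 to 10319467 in Yap-shRNA, and peak counts from 2588520 to 6871176 and from 5884288 to 6701781. LacZ-shRNA replicates 1 and 2 were the shallowest and carry the most counting error. Levels are given as CPM, counts scaled to a common library size, with TMM factors. The tissue label was checked on markers fixed by name. Windows of 14 muscle fibre genes had a median of 24.7 CPM per kb of window, against 5.71 over all 20540 protein-coding windows, whereas fibroblast, endothelial, leukocyte, satellite cell and smooth muscle markers had medians from 3.81 to 7.17. Single genes departed from their lists. Myh1 at 4.10 and Myh2 at 5.28 lay below 5.71, unlike the rest of the fibre list. Cdh15 of the satellite cell list stood at 19.9. The summed CPM of each list overlapped between the groups. In pooled nuclei, fewer nuclei of a type and less accessibility per nucleus cannot be told apart.

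The starts of 4 genes show how differently these promoters are built. Each stretch below runs from 250 bases before the RefSeq start to 50 after it (GRCm38.p6 promoter table, which held 7 of the 10 members, and not Fst, Smad2 or Smad7). Mstn, Gdf11 and Inhba are the ligand genes without a promoter peak, and Acvr1b is the member with the most open window. Capitals mark exact matches on either strand to ACATTCC (the TEAD site), CAGAC (a SMAD site), GTCTAGAC (a SMAD palindrome), CAGCTG (an E-box), TATAAA (the TATA box), CCAAT and GTAAACA (a forkhead site), none of which overlap here. They lie at chr1:53061390-53061689 on the plus strand, chr10:128891669-128891968 on the minus strand, chr13:16011601-16011900 on the plus strand and chr15:101173822-101174121 on the plus strand, in that order.
Mstn: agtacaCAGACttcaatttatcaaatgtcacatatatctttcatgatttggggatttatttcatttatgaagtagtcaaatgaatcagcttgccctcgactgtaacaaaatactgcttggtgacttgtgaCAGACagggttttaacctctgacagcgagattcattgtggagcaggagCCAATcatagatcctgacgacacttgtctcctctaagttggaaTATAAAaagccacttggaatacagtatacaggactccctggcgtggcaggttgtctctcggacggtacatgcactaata
Gdf11: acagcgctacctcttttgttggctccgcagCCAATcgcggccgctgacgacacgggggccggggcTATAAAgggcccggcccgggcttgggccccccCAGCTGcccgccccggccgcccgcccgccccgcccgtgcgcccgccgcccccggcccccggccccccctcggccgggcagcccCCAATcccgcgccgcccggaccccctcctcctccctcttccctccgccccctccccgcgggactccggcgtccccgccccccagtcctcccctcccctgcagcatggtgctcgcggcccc
Inhba: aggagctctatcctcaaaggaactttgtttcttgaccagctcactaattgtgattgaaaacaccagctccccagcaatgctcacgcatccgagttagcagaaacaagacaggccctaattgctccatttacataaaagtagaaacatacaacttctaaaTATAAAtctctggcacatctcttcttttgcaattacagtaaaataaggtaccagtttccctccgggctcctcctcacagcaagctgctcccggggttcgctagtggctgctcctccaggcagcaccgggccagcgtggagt
Acvr1b: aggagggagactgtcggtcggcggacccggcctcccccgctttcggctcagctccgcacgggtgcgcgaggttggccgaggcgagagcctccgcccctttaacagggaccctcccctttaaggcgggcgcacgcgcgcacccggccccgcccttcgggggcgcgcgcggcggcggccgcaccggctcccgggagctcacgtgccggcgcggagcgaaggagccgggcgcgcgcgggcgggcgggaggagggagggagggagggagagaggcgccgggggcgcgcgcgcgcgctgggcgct

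The Mstn promoter was AT-rich, with 41.3% G and C against a median of 52.7% over the 32851 promoters of the table. It held 6 CpG dinucleotides, which is not few for its C and G content. Its CpG observed over expected was 0.468, against a median of 0.384. A TATAAA began 29 bases before its start, a CCAAT 72 bases before and CAGAC matches 244 and 120 bases before. Inhba, which encodes the subunit of activin A, was similar at 47.7% G and C with 7 CpG (observed over expected 0.426) and a TATAAA 91 bases before the start. Gdf11 encodes the closest relative of myostatin, yet its promoter held 80.7% G and C and 36 CpG, with a TATAAA 185 bases before the start and a CAGCTG 153 bases before. Acvr1b had 79.7% G and C and 51 CpG, and no match to any of the 7 strings. The receptor and Smad promoters in the table all lay above the median in G and C, with 80.3% in Acvr2a, 73.3% in Acvr2b and 67.7% in Smad3.

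TATAAA was held by 3 of the 7 member promoters (42.9%) and by 13.6% of all promoters, and the 3 were the ligand genes. CAGAC was held by 3 of 7, against 49.6% of all promoters, and occurred in Mstn, Acvr2a and Acvr2b. CCAAT was in 2 of 7, Mstn and Gdf11, against 37.4%. CAGCTG was in 1 of 7, against 16.3%. None of the 7 held ACATTCC, GTCTAGAC or GTAAACA, which occurred in 3.85%, 0.213% and 3.65% of all promoters. These matches describe the letters in each stretch only.

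Accessibility per kb of window spanned a wide range among the members. Acvr1b stood first with a mean of 21.4 CPM per kb over the 6 libraries (16.3 to 26.99), at the 98.1st percentile of protein-coding windows. Smad3 followed at 13.9 (11.7 to 16.7), Acvr2b at 12.5 (11.5 to 13.5) and Smad2 at 11.6 (10.7 to 13.9), all between the 88.7th and the 93.1st percentile. Receptor and Smad genes thus took the top 4 places. Gdf11 came next at 9.09 (8.23 to 10.3), above Acvr2a at 7.53 (6.60 to 9.08), Mstn at 6.74 (5.67 to 7.67) and Smad7 at 6.57 (5.75 to 7.35). Inhba at 5.32 (4.29 to 5.93) and Fst at 3.30 (2.76 to 3.97) were lowest, at the 45.8th and 21.5th percentiles. The windows of Smad7 and Fst share bases with those of Gm20544 and Gm47040, so their places in the order are uncertain and may be too low. Neighbours in this order overlapped in their ranges over libraries, except that every library put Smad2 above the whole range of Gdf11 and Inhba above that of Fst. Within single libraries the order was steadier, since each gene exceeded the next in at least 4 of 6 libraries, and in 6 of 6 for Acvr1b over Smad3 and Smad3 over Acvr2b.

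**Figure D1:**
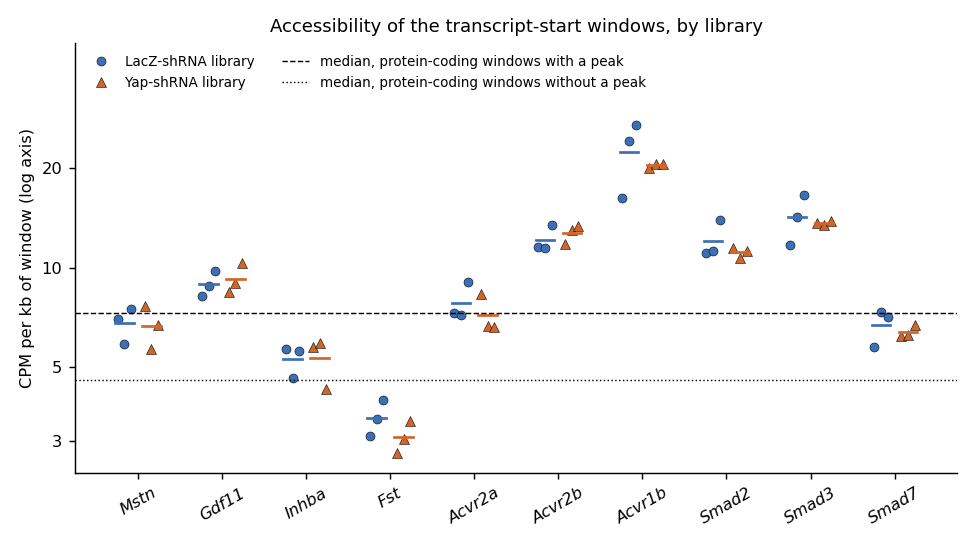
Accessibility of each member's window in CPM per kb (log axis), with 1 point per library and a short line at each group mean, beside the medians of protein-coding windows with and without a peak. Acvr1b lies highest and Fst lowest, and the groups overlap at each of the 10 genes.

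These values average over windows that differ in how many starts they hold. A window with a single cluster of starts, as in Acvr1b (2001 bp) or Mstn (2018 bp), is filled by its promoter, whereas Smad3 has 5 starts over 10005 bp and Smad2 2 clusters over 5967 bp. Per kb of promoter peak, the order was Smad7 at 46.0 CPM, Smad2 at 44.0, Acvr2b at 33.9, Acvr1b at 32.7, Smad3 at 31.5 over its 3 peaks and Acvr2a at 23.8. Peak CPM are scaled to the peak counts and window CPM to the window counts, so only the orders can be set side by side. A promoter peak is also the densest part of its window, so a higher level per kb of peak carries no information. In order, Smad7 was last of these 6 genes per kb of window and first per kb of promoter peak. Its window held fewer counts than that peak in every library, such as 205 against 297 in LacZ-shRNA replicate 1. Most of the peak nevertheless lies inside the inferred window. The window shares bases with that of Gm20544, and whether shared reads were left out of it was not tested. The level of Smad7 per kb of window may therefore be too low. The peaks inside the window held 80.5% of the window counts in Smad2, 67.0% in Smad3, 63.5% in Acvr2a and 47.4% in Acvr2b.

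The 4 genes without a promoter peak were not alike. Among the 9898 protein-coding windows that held no peak, Gdf11 stood at the 95.1st percentile, Mstn at the 78.6th, Inhba at the 61.1st and Fst at the 27.9th. A window without a peak was not always a closed one. Of the 205 protein-coding windows in the top 1% by CPM per kb, 29 (14.1%) held no peak, and these included the muscle fibre genes Atp2a1, Ckm and Tnni2 at 61.0, 41.0 and 55.2 CPM per kb.

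None of the ligand windows passed the test. The Mstn window (ENSMUSG00000026100, chromosome 1, gene 53061640 to 53068079, plus strand, GRCm38) held 14.1, 11.9 and 15.2 CPM in LacZ-shRNA replicates 1, 2 and 3. In the Yap-shRNA replicates it held 15.5, 11.5 and 13.6 CPM. The groups interleave, and the means of 13.7 ± 1.69 and 13.5 ± 2.01 CPM (SD, n = 3 per group, as for all means here) gave a log2 fold change of Yap-shRNA against LacZ-shRNA of -0.05 (SE 0.18, adjusted p 0.987 in edgeR). Gdf11 (ENSMUSG00000025352, chromosome 10, 128882295 to 128891718, minus strand) held 16.5, 17.6 and 19.6 CPM in LacZ-shRNA against 16.9, 18.0 and 20.6 CPM in Yap-shRNA. Replicate 3 was the highest of each group, and the log2 fold change was 0.03 (SE 0.16, adjusted p 0.990 in edgeR). Inhba (ENSMUSG00000041324, chromosome 13, 16011851 to 16031621, plus strand) held 22.8, 18.6 and 22.4 CPM in LacZ-shRNA against 23.0, 23.7 and 17.2 CPM in Yap-shRNA. Both groups averaged 21.3 CPM, and the log2 fold change was -0.01 (SE 0.16, adjusted p 0.996 in edgeR).

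Fst, the extracellular inhibitor, had the smallest p-value of the 10 windows. Its window (ENSMUSG00000021765, chromosome 13, 114452290 to 114458951, minus strand) held 18.8, 21.1 and 24.0 CPM in LacZ-shRNA against 16.7, 18.3 and 20.9 CPM in Yap-shRNA. The highest Yap-shRNA library lay above the lowest LacZ-shRNA library, so the groups overlap. Means of 21.3 ± 2.62 and 18.6 ± 2.10 CPM gave a log2 fold change of -0.21 (SE 0.16, unadjusted p 0.192, adjusted p 0.949 in edgeR). Its counts are uncertain, since the window shares bases with that of Gm47040.

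Among the receptors, the type II receptor gene Acvr2a (ENSMUSG00000052155, chromosome 2, 48814109 to 48903269, plus strand) held 29.1, 28.8 and 36.3 CPM in LacZ-shRNA against 33.4, 26.6 and 26.4 CPM in Yap-shRNA. LacZ-shRNA replicate 3 and Yap-shRNA replicate 1 were high, and the log2 fold change was -0.14 (SE 0.15, adjusted p 0.955 in edgeR). Acvr2b, which encodes the other type II receptor and the main one for myostatin (ENSMUSG00000061393, chromosome 9, 119402118 to 119434995, plus strand), held 73.4, 73.1 and 85.8 CPM in LacZ-shRNA against 75.3, 82.7 and 84.8 CPM in Yap-shRNA. The highest value of all 6 was in LacZ-shRNA, and the log2 fold change was 0.06 (SE 0.13, adjusted p 0.983 in edgeR). Acvr1b, the type I receptor gene (ENSMUSG00000000532, chromosome 15, 101174067 to 101213684, plus strand), held 32.6, 48.4 and 54.0 CPM in LacZ-shRNA against 40.1, 41.2 and 41.1 CPM in Yap-shRNA. The LacZ-shRNA libraries lay on both sides of a narrow Yap-shRNA group (45.0 ± 11.1 against 40.8 ± 0.62 CPM), and the log2 fold change was -0.14 (SE 0.15, adjusted p 0.957 in edgeR).

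None of the Smad windows passed the test either. Smad2 (ENSMUSG00000024563, chromosome 18, 76241580 to 76310963, plus strand) held 66.2, 67.3 and 83.1 CPM in LacZ-shRNA against 68.3, 64.0 and 67.2 CPM in Yap-shRNA. LacZ-shRNA replicate 3 alone stood above the others, and the log2 fold change was -0.13 (SE 0.13, adjusted p 0.957 in edgeR). Smad3, which with Smad2 carries the signal to the nucleus (ENSMUSG00000032402, chromosome 9, 63646767 to 63757994, minus strand), held 117, 143 and 167 CPM in LacZ-shRNA against 137, 135 and 138 CPM in Yap-shRNA. The Yap-shRNA libraries again lay inside the LacZ-shRNA range, and the log2 fold change was -0.06 (SE 0.14, adjusted p 0.983 in edgeR). Smad7, the inhibitory Smad and itself a known target of Smad signalling (ENSMUSG00000025880, chromosome 18, 75367529 to 75395935, plus strand), held 37.1, 47.4 and 45.8 CPM in LacZ-shRNA against 40.0, 40.5 and 43.2 CPM in Yap-shRNA. Its log2 fold change was -0.07 (SE 0.14, adjusted p 0.980 in edgeR), and its window shares bases with that of Gm20544.

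In all, 0 of the 10 windows passed an adjusted p of 0.05 in edgeR's quasi-likelihood test, which called 0.0223% of all windows. An unadjusted p under 0.05 was reached by 0 of 10, against 4.9% of all windows, and the groups were apart in 0 of 10, against 10.1%. The 95% intervals of the log2 fold change ran from -0.53 at the lowest (Fst) to 0.36 at the highest (Gdf11), and differences within each interval were not detectable with these libraries. A value above 0 was seen for 2 windows and below 0 for 8 (5 and 5 with library size alone as the scaling), with a median of -0.0651 against -0.0143 over all windows. The figure legends of the paper describe the replicates as independent animals, whereas its methods pool several muscles into each replicate. Which animals went into each pool is not stated, so the p-values measure the spread between these samples.

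**Figure D2:**
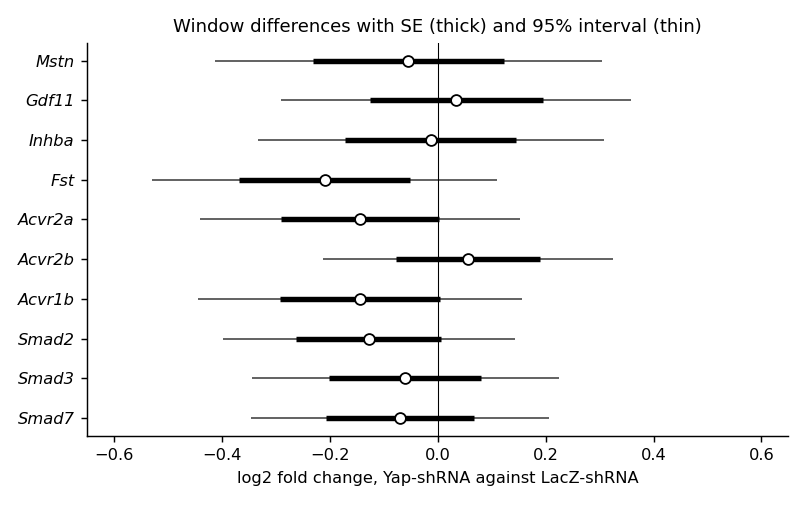
Log2 fold change of each member's window, Yap-shRNA against LacZ-shRNA, from 3 libraries per group, with its SE (thick line) and 95% interval (thin line). The points lie between -0.21 and 0.06, and each interval includes 0.

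Peaks were examined next, since a window can hide a change at one element or further away. Within 50 kb of the 10 genes lay 45 peaks, of which 11 within 1 kb of a transcript start of another gene were left out, and 34 were linked to a member by position alone. Of these 34, 7 were promoter peaks, 7 lay elsewhere in the gene and 20 lay outside it. Another protein-coding gene had the nearest start for 14 of the 34. Smad3 had 9 linked peaks, Acvr1b 7, Acvr2b 6, Mstn and Smad7 3 each, Acvr2a and Gdf11 2 each and Inhba and Smad2 1 each. No peak lay within 50 kb of Fst. The linked peaks had a median of 32.9 CPM and 1190 bp, against 15.1 CPM and 901 bp over all 36097 peaks.

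**Figure D3:**
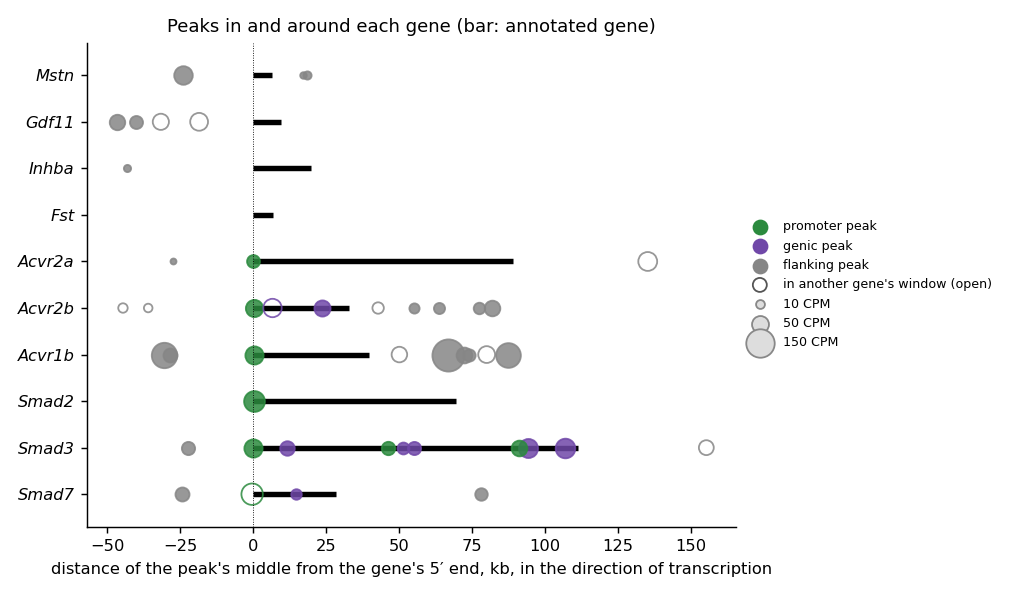
Peaks in and around each member by distance of the peak's middle from the gene's 5′ end in kb, with the gene as a bar, the peak class by colour and the mean CPM of the 6 libraries by area. The receptor and Smad genes have a peak at the 5′ end, and Mstn, Gdf11, Inhba and Fst have none there.

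Starts of one gene differed in whether they lay in a peak. Smad3 is transcribed from 5 annotated starts, and 3 of them lay in a peak. The peak at the 5′ start (chr9:63757078-63758767) held 59.9 ± 9.99 CPM in LacZ-shRNA against 57.9 ± 4.11 in Yap-shRNA. The peak at the start of Smad3-204 (chr9:63666184-63667478) held 42.1 ± 4.95 and 43.2 ± 4.94 CPM, and that at the start of Smad3-205 (chr9:63711031-63712212) 31.8 ± 2.30 and 27.3 ± 0.30 CPM. The starts of Smad3-202 and Smad3-203 held no peak. In Smad2, Acvr2a and Acvr2b the 5′ starts lay in a peak, and the internal clusters of starts held none.

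Promoter peaks did not pass the test. For Smad2 (chr18:76240901-76242677) the log2 fold change was -0.10 (SE 0.13), and for the 5′ peak of Smad3 it was -0.07 (SE 0.13). The Acvr2b promoter peak (chr9:119401559-119403102) held 49.9 ± 7.65 CPM in LacZ-shRNA against 54.5 ± 3.48 in Yap-shRNA, the Acvr1b peak (chr15:101173394-101175184) 58.8 ± 9.23 and 58.4 ± 2.24, and the Acvr2a peak (chr2:48813438-48814568) 28.6 ± 3.51 and 25.3 ± 4.34. These are differences on the log2 scale of 0.10 (SE 0.13), -0.01 (SE 0.13) and -0.20 (SE 0.15). In the Smad3-205 peak all 3 LacZ-shRNA libraries (30.4, 30.6 and 34.5 CPM) lay above all 3 Yap-shRNA libraries (27.5, 26.96 and 27.5 CPM), with a log2 fold change of -0.24 (SE 0.14, adjusted p 0.665 in edgeR). The Smad7 promoter peak (chr18:75366271-75368077), among the 11 left out because Gm20544 shares it, showed the same order, with 81.3, 87.9 and 95.7 CPM in LacZ-shRNA against 80.6, 77.8 and 75.4 CPM in Yap-shRNA, at -0.19 (SE 0.12, adjusted p 0.735 in edgeR). Its 1806 bp held 1 exact GTCTAGAC, the palindrome that Smad3 and Smad4 bind, which lies in the shorter middle 300 bases of 0.17% of all peaks.

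One linked peak passed the threshold, and it lay far from its member. The peak at chr9:119479089-119479771, in no protein-coding gene, was 46651 bp from the nearest start of Acvr2b and 34102 bp from that of Exog, a mitochondrial nuclease gene. Its values were 24.4, 29.7 and 24.6 CPM in LacZ-shRNA replicates 1, 2 and 3. Yap-shRNA libraries had 11.8, 16.5 and 17.04 CPM, each below the lowest LacZ-shRNA library. The mean fell from 26.2 ± 3.03 to 15.1 ± 2.89 CPM, a log2 fold change of -0.77 (SE 0.17, adjusted p 0.0105 in edgeR, 95% interval -1.11 to -0.44). The counts behind it were 70 to 167 per library. Without Yap-shRNA replicate 1 the value was -0.62 and the adjusted p 0.154, and without LacZ-shRNA replicate 2 they were -0.70 and 0.0585. With library size alone as the scaling they were -0.64 and 0.0557.

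The middle of that peak (chr9:119479281-119479580, plus strand, GRCm38) is shown because it is the only stretch near a member that passed the test. Capitals mark a CCAAT and a GTCTG, which is CAGAC on the other strand.
Peak beyond Acvr2b: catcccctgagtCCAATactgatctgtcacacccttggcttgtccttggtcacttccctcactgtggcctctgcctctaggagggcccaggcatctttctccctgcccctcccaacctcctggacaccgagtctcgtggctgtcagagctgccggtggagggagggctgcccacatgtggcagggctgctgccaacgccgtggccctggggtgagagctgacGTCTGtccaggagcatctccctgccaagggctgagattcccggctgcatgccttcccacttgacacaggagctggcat

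It held no ACATTCC. Its longest run of G or C was 6 bases, against a run of at least 15 in 1.13% of all peaks and in 0 of the 34 linked peaks. The peaks within 10 kb of a member numbered 14, and 0 of them passed.

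Over the 34 linked peaks, 1 passed the threshold, in the lower direction, against 0.618% of all peaks in either direction and 0.571% lower. A single peak is too few to set the members apart from this background. An unadjusted p under 0.05 was seen for 3, all lower, against 8.9% of all peaks in either direction and 5.31% lower. The groups were apart in 6, against 13.3% of all peaks, with LacZ-shRNA above in 5, against 6.76%. The median log2 fold change was -0.0646, beside -0.0026 over all peaks.

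**Figure D4:**
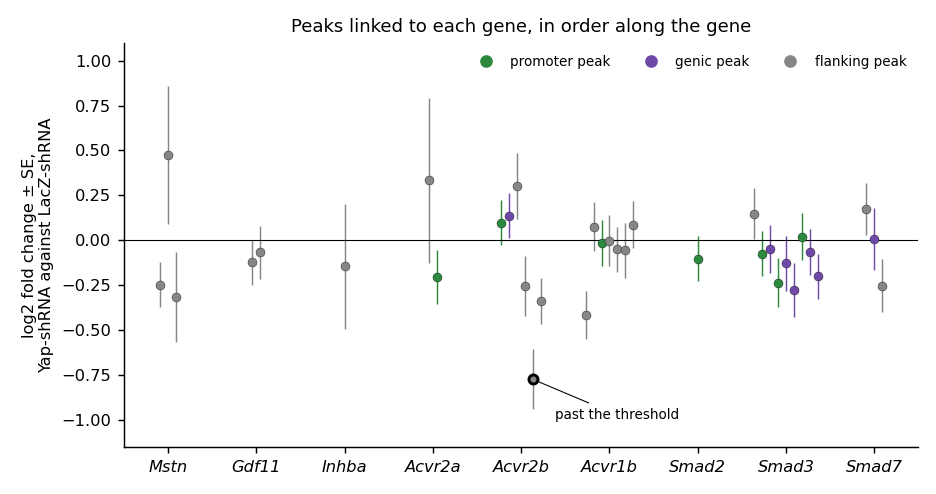
Log2 fold change ± SE of the 34 linked peaks, Yap-shRNA against LacZ-shRNA, by gene and in order along it, with the class by colour. The peak past the threshold, beyond Acvr2b, lies at -0.77, and the others lie between -0.41 and 0.47.

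The second smallest p-value belonged to a strong peak before Acvr1b (chr15:101142273-101145016) that lies inside Acvrl1, a gene for another type I receptor of the superfamily with its start 4673 bp away. It held 116, 147 and 145 CPM in LacZ-shRNA against 107, 104 and 94.8 CPM in Yap-shRNA, so the groups were apart. The log2 fold change was -0.41 (SE 0.13, unadjusted p 0.00299, adjusted p 0.188 in edgeR). In Smad3 the lowest p-value was at an intronic peak (chr9:63702349-63703248), with 31.4 ± 7.26 and 25.3 ± 1.04 CPM and a log2 fold change of -0.28 (SE 0.15, adjusted p 0.613 in edgeR). For Smad7 it was at a peak beyond the gene, inside Ctif (chr18:75445153-75445966), with 27.4 ± 2.92 and 23.1 ± 2.45 CPM and -0.25 (SE 0.15, adjusted p 0.669 in edgeR).

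The ligand genes had few peaks, all at a distance. The largest at Mstn (chr1:53037105-53038305) lay 23335 bp before the start, outside protein-coding genes, at the 92.8th percentile of all peaks by CPM, and 1700019D03Rik had the nearest coding start, 16926 bp away. It held 68.5, 67.9 and 63.6 CPM in LacZ-shRNA against 64.8, 49.8 and 53.3 CPM in Yap-shRNA. Yap-shRNA replicate 1 lay within the LacZ-shRNA range and the other two below it, and the log2 fold change was -0.25 (SE 0.13, unadjusted p 0.0544, adjusted p 0.580 in edgeR). Both smaller peaks after Mstn (chr1:53078609-53079069 and chr1:53079921-53080268) held at most 11.05 CPM in every library, with log2 fold changes of 0.47 (SE 0.38) and -0.32 (SE 0.25). The linked peaks of Gdf11 had Itga7, an integrin gene, as their nearest coding gene, and the stronger (chr10:128937697-128939436) held 42.8 ± 1.73 and 39.4 ± 2.46 CPM. The single Inhba peak (chr13:15968306-15969071) lay 42780 bp away and held 5.47 ± 2.50 and 4.69 ± 0.53 CPM.

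The linked peaks were also searched for the same strings in their middle 300 bases. CAGCTG, the E-box read by muscle regulatory factors, occurred in 14 of 34 (41.2%), against 17.2% of all 35982 peak centres with sequence. CAGAC occurred in 19 of 34 (55.9%), against 46.9%, and ACATTCC in 2 (5.88%), against 2.17%. CCAAT in 10 (29.4%) lay near the 30.1% of all peaks. The linked peaks were wider and stronger than the rest, and the part of this in the shares was not tested.

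Other genes were read from a list of 50, all of which had a window. It was drawn up by name from ligands, receptors and Smads of the TGF-beta superfamily and genes that act on them. Not every gene on it need signal through Smad2 and Smad3. No window of the 50 passed the adjusted threshold (0 of 50, against 0.0223% of all windows), 4 had an unadjusted p under 0.05, against 4.9%, and the groups were apart in 11, against 10.1%. Yap-shRNA was above in 7 of the 50 and LacZ-shRNA in 4, against 2623 and 2364 of all 49366 windows. The median log2 fold change was 0.0195, against -0.0143 over all windows. By role it was 0.0899 for 12 ligand genes, 0.109 for 16 inhibitor or processing genes, 0.0343 for 8 receptor or coreceptor genes and -0.0438 for 14 Smad or partner genes.

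The smallest p-value belonged to Fstl3, whose product binds myostatin and activin as follistatin does. Its window held 74.9, 106 and 94.8 CPM in LacZ-shRNA against 74.96, 70.9 and 72.9 CPM in Yap-shRNA, with LacZ-shRNA replicate 1 beside the Yap-shRNA libraries. The log2 fold change was -0.33 (SE 0.14, adjusted p 0.946 in edgeR), and without LacZ-shRNA replicate 1 it was -0.45 with an adjusted p of 0.0150. Ppm1a, a phosphatase gene linked to Smad2 and Smad3, held 97.8 ± 6.01 CPM in LacZ-shRNA against 79.7 ± 6.52 in Yap-shRNA. Skil, a gene for a repressor of Smad transcription, held 103 ± 7.74 and 84.5 ± 6.74 CPM. In both, every LacZ-shRNA library lay above every Yap-shRNA library, with log2 fold changes of -0.29 each (SE 0.13, adjusted p 0.946 in edgeR). Gdf15, placed with the ligands by name only, held 20.9 ± 3.57 and 25.8 ± 2.26 CPM at 0.33 (SE 0.15). Gdf3 held 13.0 ± 2.10 and 9.83 ± 1.09 CPM at -0.38 (SE 0.19), both with an adjusted p of 0.946 in edgeR.

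**Figure D5:**
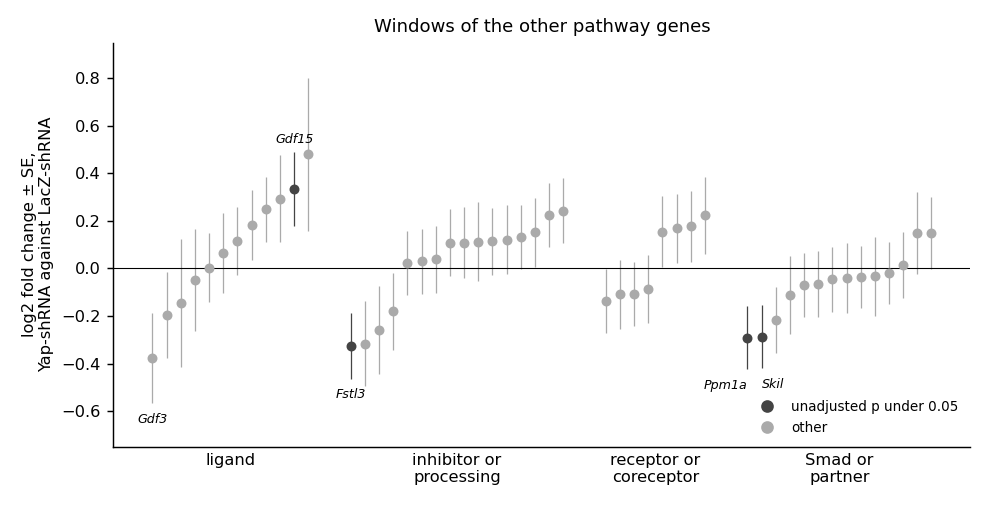
Log2 fold change ± SE of the windows of the other 50 pathway genes, Yap-shRNA against LacZ-shRNA, sorted within role, with dark points for an unadjusted p under 0.05. Of the 4 dark points Gdf15 is above 0 and Fstl3, Ppm1a and Skil are below.

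Markers of other cells were read beside these values. The summed fibroblast windows (7 genes) ran from 206 to 240 CPM in LacZ-shRNA, and from 230 to 290 in Yap-shRNA, with a median log2 fold change of 0.21. None of the 7 passed the adjusted threshold. Values above 0 were seen for 4, of which the collagen genes Col1a1 (0.39) and Col3a1 (0.34) had an unadjusted p under 0.05, and below 0 for 3, Dcn (-0.26), Pdgfra (-0.25) and Lum (-0.12). The marker with the smallest p was Kdr of the endothelial list, at -0.59 (unadjusted p 0.00116, adjusted p 0.909 in edgeR), and Calcr of the satellite cell list was at -0.37 (unadjusted p 0.0242, adjusted p 0.946 in edgeR), both with LacZ-shRNA above. Endothelial windows summed to 142 to 153 CPM in LacZ-shRNA and 141 to 147 in Yap-shRNA. Leukocyte windows summed to 90.2 to 106 and 100 to 109 CPM, and muscle fibre windows to 1866 to 2651 and 1991 to 2307 CPM. No marker window was at 0 in any library. Their part in the values of the pathway genes was not tested.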

How the data were processed

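The labels assign 3 libraries to LacZ-shRNA and 3 to Yap-shRNA. The authors mapped paired-end reads to GRCm38 with BWA 0.7.17, removed duplicates with SAMtools 1.8, called and merged peaks with MACS 1.4.2-1 and counted reads with featureCounts 1.5.0. The deposited values are raw read counts in tables of peaks and of windows around transcript starts, without features whose mean count was under 10. Reads of one locus from different nuclei are counted together, and the transposase offset could not be examined in counts.

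Window extents were inferred, and rebuilt from the Ensembl annotation of GRCm38, and peak coordinates are printed as deposited. Counts were fitted in R 4.3.3 with TMM factors and group as the single term, and tested by the quasi-likelihood method of edgeR 4.0.16, with p-values adjusted by Benjamini-Hochberg over all windows or all peaks at 0.05, after the test had been run on simulated data. SE and 95% intervals come from that fit. Alternatives were RLE factors, library size alone, a mean count of at least 50, the likelihood-ratio test, DESeq2 1.42.0, limma 3.58.1 voom, a replicate block, a loess offset on abundance (span 0.3), levels per kb of promoter peak, peaks within 10 kb and leaving out each library. Keeping peaks in windows of other genes, and using only peaks nearest to a member, were chosen after seeing the data.

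The members, lists and tests were chosen with earlier results of these data known. All 10 members were named, with each called peak, the promoter peak with most CPM and the peak with the smallest p-value of each, and the 5 smallest p-values of the 50 other pathway genes. Further peaks, at Smad3 starts, after Mstn and at Smad7, were named after their values were seen. The other linked peaks are given as counts only.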

Additional observations from a re-analysis of the deposited data

How the results depend on the processing

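No member window passed the threshold under any of 14 alternatives, though in DESeq2 a window without an adjusted p was counted as not passing. The sign did not change in any alternative for 5 members (Fst, Acvr2a, Acvr2b, Smad2 and Smad7). It changed in 12 of the 140 combinations of member and alternative. With library size alone, which moved the median of all peaks to 0.136 and of all windows to 0.0459, the window log2 fold changes were 0.0047 for Mstn, 0.0476 for Inhba and 0.0047 for Smad3, and those of peaks were 0.0185 for Gdf11, 1.37e-05 for Inhba, 0.127 for Acvr1b, 0.0388 for Smad2 and 0.0687 for Smad3. Relative to that median, 12 of 13 peaks were below it, these being each member's promoter peak with most CPM and peak with the smallest p-value. They were picked in part by p-value, so this count does not give the direction of the linked peaks. Over all 34 linked peaks, 23 were below 0 and 11 above in the main fit. The Inhba peak was at 0.0464 in voom and the Acvr1b promoter peak at 0.0095 with the abundance offset. Leaving out each library gave ranges of -0.162 to 0.0592 for the Mstn window, -0.0464 to 0.123 for Gdf11, -0.0966 to 0.118 for Inhba, -0.345 to 0.0454 for Acvr1b and -0.193 to 0.0778 for Smad3, and for promoter or linked peaks -0.566 to 0.321 for Inhba, -0.139 to 0.0891 for Acvr1b and -0.157 to 0.0971 for Smad3.

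The 1 called linked peak became 0 with library size alone, within 10 kb, with only peaks nearest to a member, and with either LacZ-shRNA replicate 2 or Yap-shRNA replicate 1 left out (0 to 1 over the libraries left out). Its adjusted p ranged from 0.00171 to 0.154. The wider list went from 0 calls to 1, Fstl3, without LacZ-shRNA replicate 1. The 11 windows called in all became 33 by the likelihood-ratio test, 20 in DESeq2, 23 in voom, 32 with the abundance offset and 4 to 157 without one library (157 without LacZ-shRNA replicate 1, 5 and 4 without Yap-shRNA replicates 1 and 2). The 223 peaks became 136 at a mean count of at least 50, 378 by the likelihood-ratio test, 118 in DESeq2, 143 with the abundance offset and 94 to 447 without one library (447 without LacZ-shRNA replicate 3, 132 without LacZ-shRNA replicate 2, 94 without Yap-shRNA replicate 1 or 2). With library size alone the 229 called peaks were 124 higher and 105 lower, in place of 17 and 206. The cause of these changes was not tested. An adjusted p was not given by DESeq2 for 38284 windows and 12597 peaks, which could not pass there. Members with low counts can be among these windows, so for them DESeq2 decides nothing. Levels per kb of promoter peak were 46.0 in Smad7, 44.0 in Smad2, 33.9 in Acvr2b, 32.7 in Acvr1b, 31.5 in Smad3 and 23.8 in Acvr2a. Their order differed from that per kb of window, and the values themselves are on another scale.

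The labels do not say whether the same replicate number marks the same mice. Deviations of same-numbered libraries correlated at 0.015, -0.093 and -0.139 in peaks and at 0.191, -0.121 and 0.092 in windows. With so few libraries per group, these values cannot show whether same-numbered libraries share mice. The vectors went to contralateral limbs, so a pairing may exist, but the labels do not give it and the main fit did not use it. With the replicate number as a block, 13 windows and 207 peaks were called, with 0 members and 1 linked peak among them.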
